A study of Mus musculus with 21 samples.

Results

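The genes described here are 59 mouse genes of DNA replication and cell division, listed by gene name and role with earlier results of these data known. All 59 were found among the 21887 protein-coding genes of the mouse annotation GRCm38.p6. By role they were 14 genes of helicase loading and activation, 8 of polymerases, clamp and single-strand binding, 4 of nucleotide synthesis, 6 E2F and pocket protein genes, 9 genes of G1 and S cyclins and kinases, 7 of mitotic entry and 11 of chromosome segregation and exit. The data were CUT&RUN peak lists, in which an antibody directs a nuclease to cut out the DNA around its target. The first antibody recognised PSME3, a nuclear activator subunit of the proteasome, and the second H3K4me3, a histone mark found at the starts of active genes. Cells of C2C12, a mouse myoblast line, were used, which stops dividing and forms muscle fibres in low serum. Cycling C2C12 grew in 20% FBS and were frozen unfixed in 10% DMSO, with 3 replicate libraries per antibody. Day 2 C2C12 had been grown to confluency and kept for 48 h in 2% horse serum. They gave 1 library per antibody in each of 4 preparations, in which cells were frozen or fresh, and either native or crosslinked by 0.1% formaldehyde for 5 min. Values of day 2 are given in the order frozen native, frozen crosslinked, then fresh native, then fresh crosslinked. All libraries came from this 1 cell line. The cycling replicates were described as biological replicates, whereas each day 2 preparation gave a single library, so the spread at day 2 also holds the differences between preparations. The comparison asked whether PSME3 and H3K4me3 at these genes differed between dividing cells and cells that were leaving the cell cycle.

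As background, genes of S phase are switched on late in G1 when cyclin-dependent kinases release E2F transcription factors from the pocket proteins Rb1, Rbl1 and Rbl2. Genes of mitosis peak later and are read through paired promoter elements, a CCAAT box bound by NF-Y and a CHR element bound by the MuvB complex together with Mybl2 and Foxm1. When myoblasts leave the cell cycle, MuvB assembles with pocket proteins and E2F into the DREAM complex, which represses both groups.

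The promoters show which of these elements the genes carry. RefSeq promoters of GRCm38.p6, from 250 bases before to 50 bases after a start, were listed for 47 of the 59 genes. Where a gene had several, the promoter overlapped by the pooled H3K4me3 peak of highest fold enrichment was taken. An E2F motif (TTTGGCGC, TTTCCCGC, TTTCGCGC or TTTGCCGC, either strand) was found in 15 of the 47, or 31.9%, against 2.93% of 17492 protein-coding promoters and 4.49% of the 9658 under a pooled H3K4me3 peak. The CHR motif TTTGAA, on either strand, was also found in 15 of 47 (31.9%), against 16.4% of all promoters and 11.0% of those with H3K4me3. CCAAT, on either strand, was found in 33 of 47 (70.2%), against 38.9% and 39.1%. Of 47 listed promoters of other cell cycle genes, E2F was found in 21.3%, CHR in 40.4% and CCAAT in 55.3%, and the differences from the 59 were not tested. The motifs were searched separately and may overlap. By role, and with no test of the differences, the E2F motif was held by 7 of 10 listed promoters of helicase genes, 2 of 7 of polymerase, clamp and single-strand binding genes, 0 of 4 of nucleotide synthesis genes, 3 of 5 of E2F and pocket protein genes, 2 of 6 of G1 and S genes, 1 of 5 of mitotic entry genes and 0 of 10 of segregation genes. The CHR motif was held by 3, 0, 0, 2, 0, 4 and 6 of the promoters of the same roles in the same order. A match describes these letters and is not evidence of binding.

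Below, 9 promoters are printed 5′ to 3′ on the strand of the gene, in lower case with every E2F, CHR and CCAAT match in capitals. Plk1, Bub1b, Ccnb2 and Cdc20 are shown as mitotic genes whose rank by H3K4me3 fold enrichment was lower in all day 2 libraries, and Mcm6 and Cdc6 as replication genes with the same pattern. Cdk1 and Mcm7 are shown because their fold enrichment rank was not, although Cdk1 ranked lower by covered length, and Cdc45 because a PSME3 peak lay over its start. In GRCm38.p6 they lie at chr7:122159185-122159484 (Plk1, plus strand), chr2:118597961-118598260 (Bub1b, plus strand), chr9:70421505-70421804 (Ccnb2, minus strand), chr4:118437294-118437593 (Cdc20, minus strand), chr1:128359656-128359955 (Mcm6, minus strand), chr11:98907901-98908200 (Cdc6, plus strand), chr10:69352863-69353162 (Cdk1, minus strand), chr5:138171834-138172133 (Mcm7, minus strand) and chr16:18811923-18812222 (Cdc45, minus strand). In Plk1 the CHR match began 31 bases after the start and the CCAAT match 14 bases before it. In Ccnb2, 3 CCAAT matches began 87, 54 and 21 bases before the start, and CHR matches began 167 bases before it and at base 5 after it. In Cdk1, CHR matches began 71 and 15 bases before the start, beside an E2F match 131 bases before it. In Mcm6, E2F matches began 110, 106 and 47 bases before the start, the first 2 overlapping each other.
Plk1: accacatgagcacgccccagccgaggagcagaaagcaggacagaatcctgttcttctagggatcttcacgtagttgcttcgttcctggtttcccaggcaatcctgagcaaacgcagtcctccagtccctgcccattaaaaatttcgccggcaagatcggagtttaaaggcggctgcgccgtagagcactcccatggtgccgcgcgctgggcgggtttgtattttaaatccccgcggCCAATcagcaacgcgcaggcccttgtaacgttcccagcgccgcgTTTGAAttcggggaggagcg
Bub1b: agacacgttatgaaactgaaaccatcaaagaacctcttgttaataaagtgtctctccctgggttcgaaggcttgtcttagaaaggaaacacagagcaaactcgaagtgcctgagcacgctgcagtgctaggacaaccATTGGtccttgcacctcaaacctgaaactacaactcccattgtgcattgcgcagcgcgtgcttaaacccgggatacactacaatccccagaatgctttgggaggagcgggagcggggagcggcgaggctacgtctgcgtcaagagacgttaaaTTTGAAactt
Ccnb2: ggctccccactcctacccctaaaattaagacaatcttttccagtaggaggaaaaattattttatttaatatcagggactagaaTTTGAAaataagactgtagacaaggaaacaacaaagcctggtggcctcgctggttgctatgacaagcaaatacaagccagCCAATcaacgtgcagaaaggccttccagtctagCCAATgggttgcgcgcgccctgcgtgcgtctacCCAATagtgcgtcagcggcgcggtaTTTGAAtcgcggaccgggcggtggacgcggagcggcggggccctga
Cdc20: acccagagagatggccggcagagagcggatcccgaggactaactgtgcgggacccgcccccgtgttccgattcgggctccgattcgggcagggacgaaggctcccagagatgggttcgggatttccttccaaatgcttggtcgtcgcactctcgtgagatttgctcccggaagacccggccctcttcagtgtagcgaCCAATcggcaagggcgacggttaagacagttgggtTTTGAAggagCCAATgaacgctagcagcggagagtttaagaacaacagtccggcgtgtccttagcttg
Mcm6: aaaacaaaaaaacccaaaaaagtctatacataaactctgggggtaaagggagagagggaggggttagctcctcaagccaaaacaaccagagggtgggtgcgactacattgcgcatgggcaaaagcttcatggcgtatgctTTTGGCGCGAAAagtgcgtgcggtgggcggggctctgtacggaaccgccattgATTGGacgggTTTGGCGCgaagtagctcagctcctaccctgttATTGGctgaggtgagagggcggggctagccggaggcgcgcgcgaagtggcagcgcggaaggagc
Cdc6: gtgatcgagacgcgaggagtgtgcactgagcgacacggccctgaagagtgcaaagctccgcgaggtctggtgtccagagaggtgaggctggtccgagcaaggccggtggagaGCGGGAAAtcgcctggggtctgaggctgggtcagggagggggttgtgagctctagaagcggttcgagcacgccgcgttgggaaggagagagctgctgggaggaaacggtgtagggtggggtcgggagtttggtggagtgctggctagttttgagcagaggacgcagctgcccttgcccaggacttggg
Cdk1: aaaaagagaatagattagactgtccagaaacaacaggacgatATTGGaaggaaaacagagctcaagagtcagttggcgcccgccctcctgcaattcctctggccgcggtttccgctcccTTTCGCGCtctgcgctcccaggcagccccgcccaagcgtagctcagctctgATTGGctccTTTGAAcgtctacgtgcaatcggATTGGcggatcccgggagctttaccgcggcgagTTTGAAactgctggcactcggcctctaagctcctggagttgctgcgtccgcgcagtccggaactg
Mcm7: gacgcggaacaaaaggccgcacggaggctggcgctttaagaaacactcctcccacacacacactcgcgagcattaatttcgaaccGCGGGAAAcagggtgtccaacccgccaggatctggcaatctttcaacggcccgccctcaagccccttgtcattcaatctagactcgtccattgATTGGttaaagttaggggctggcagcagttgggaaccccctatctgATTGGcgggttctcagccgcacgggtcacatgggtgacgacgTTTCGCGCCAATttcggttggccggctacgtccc
Cdc45: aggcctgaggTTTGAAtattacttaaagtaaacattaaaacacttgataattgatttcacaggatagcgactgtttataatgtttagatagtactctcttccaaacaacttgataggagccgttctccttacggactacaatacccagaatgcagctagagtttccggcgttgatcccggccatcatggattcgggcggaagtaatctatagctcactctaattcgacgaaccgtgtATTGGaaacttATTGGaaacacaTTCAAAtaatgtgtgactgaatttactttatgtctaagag

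**Figure D1:**
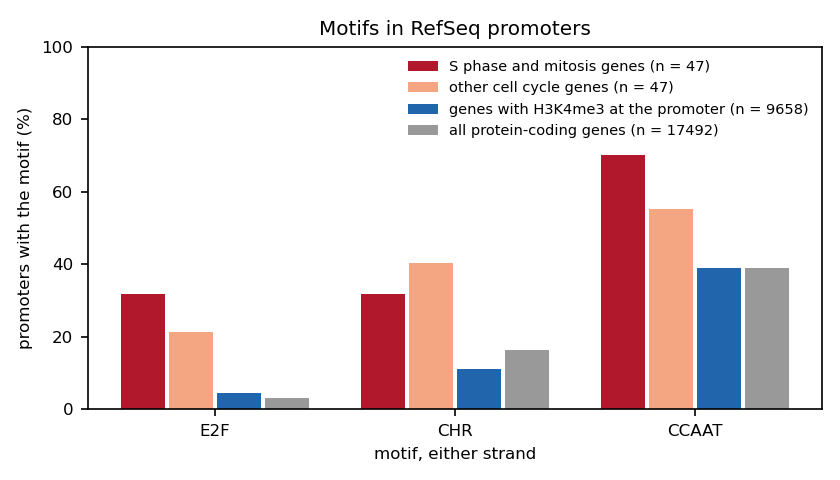
Percent of promoters (vertical axis) that held an E2F, CHR or CCAAT motif on either strand, for 47 S phase and mitosis genes, 47 other cell cycle genes, 9658 genes with H3K4me3 at the promoter and 17492 protein-coding genes. E2F and CHR each stood at 31.9% in the S phase and mitosis genes, above 4.49% and 11.0% in genes with H3K4me3, and other cell cycle genes stood at 21.3% and 40.4%.

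The peak lists differed in length. The H3K4me3 lists held 14372 to 40999 peaks per library. The PSME3 lists held 1200, 776 and 3070 peaks in cycling replicates 1, 2 and 3, 5812 in the pooled cycling list, and 186, 77, 23 and 18 in the 4 day 2 libraries. Read numbers are not part of the lists, which leaves depth unknown, and absence from a list is not absence of binding. Markers matched the labelled stages. H3K4me3 peaks lay at 5 of 5 myoblast markers in all 7 libraries, and at 1 to 3 of 9 markers of differentiating muscle in cycling libraries against 9 of 9 in all 4 day 2 libraries. Of 8 markers of other cell types, 0 or 1 had a peak per library.

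In cycling cells PSME3 peaks lay at a minority of the S phase and mitosis genes, and at about the same share as at other active genes. The pooled cycling list had a PSME3 peak within 1 kb of the span of 21 of the 59, or 35.6% (23.6 to 49.1%, exact Clopper-Pearson interval at 95% for counting error). Of all protein-coding genes 21.9% had one. Of the 13346 protein-coding genes with a pooled H3K4me3 peak 35.6% had one, so the count of 21 equalled the 21.0 genes that this share gives for 59 genes. The replicate lists held PSME3 peaks at 5, 3 and 11 of the 59, where 4.56%, 3.6% and 13.4% of protein-coding genes, or 2.69, 2.12 and 7.9 of 59, had one. Of the protein-coding genes with a pooled H3K4me3 peak 7.34%, 5.9% and 21.9% had one, or 4.33, 3.48 and 12.9 of 59. H3K4me3 peaks lay at all 59 in each of these replicates. The difference of 52.7 genes per library between the antibodies had p = 0.1 in a two-sided exact permutation test, the smallest p that 3 against 3 libraries allow.

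**Figure D2:**
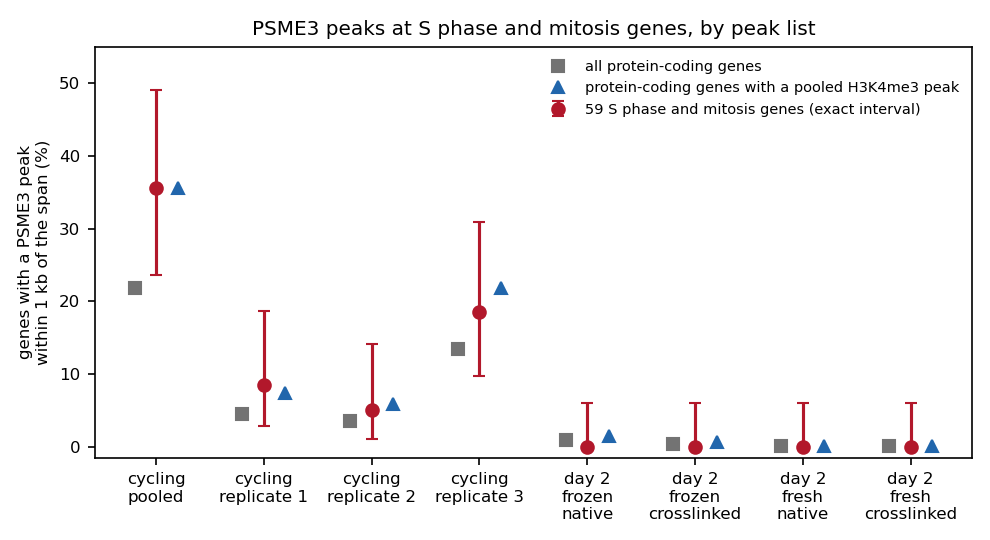
Percent of genes with a PSME3 peak within 1 kb of the span (vertical axis) in the pooled cycling list, 3 cycling replicates and 4 day 2 preparations, for the 59 S phase and mitosis genes with exact 95% intervals, all protein-coding genes and those with a pooled H3K4me3 peak. In each cycling list the share of genes with H3K4me3 lies within the interval of the 59 genes, and at day 2 the 59 genes stand at 0.

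By role, PSME3 peaks of the pooled list lay at 5 of 14 helicase genes, 4 of 8 polymerase, clamp and single-strand binding genes, 1 of 4 nucleotide synthesis genes, 3 of 6 E2F and pocket protein genes, 2 of 9 G1 and S genes, 1 of 7 mitotic entry genes and 5 of 11 segregation genes. Beside these stand 21.9% of all protein-coding genes and 35.6% of those with a pooled H3K4me3 peak. Differences between roles were not tested. The helicase genes were Mcm4, a subunit of the MCM ring, Cdt1, which loads the ring onto origins, and Cdc45, Gins1 and Gins2, which join it to form the working helicase. Those of DNA synthesis were Pcna, the sliding clamp, Pold1 and Pole, the catalytic subunits of the lagging and leading strand polymerases, and Rpa2, which coats single-stranded DNA. Rrm2, the regulated subunit of ribonucleotide reductase, was the nucleotide synthesis gene. All 3 E2F genes listed, E2f1, E2f2 and E2f3, had a peak, each found in 1 replicate list, and the pocket protein genes Rb1, Rbl1 and Rbl2 had none. At G1 and S the peaks lay at Ccne1, the cyclin partner of Cdk2, and at Cdk4. At mitosis they lay at Cdc25c, a phosphatase that activates Cdk1, at the checkpoint genes Bub1 and Mad2l1, at Birc5 of the chromosomal passenger complex, at Kif11, the motor that separates spindle poles, and at Cenpa, the centromeric histone. Ccnd3, a D-type cyclin, had a PSME3 peak in replicate 1 and none in the pooled list.

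These PSME3 peaks were rarely found again between replicates. Of the 21 genes with a pooled peak, 1 had a peak in 2 replicate lists, 16 in 1 list and 4 in 0, and none had a peak in all 3. For all 4802 protein-coding genes with a pooled peak the numbers were 260 in 3 lists, 663 in 2, 2122 in 1 and 1757 in 0. Gins2 was the gene found in 2. Its PSME3 peak had a fold enrichment over background of 2.82 in the pooled list (chr8:120589087-120589511), 5.61 in replicate 1 and 3.45 in replicate 3, with no peak in replicate 2 or at day 2. The start of Gm10614 also lay within 1 kb of that peak, so the gene it belongs to is uncertain.

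In the pooled list Cdc45 had the highest PSME3 fold enrichment of the 59, and that peak was not at its start. A PSME3 peak inside the gene (chr16:18795424-18795630) had a fold enrichment of 4.02 in the pooled list and was in 0 replicate lists, with the start of Gm52240 within 1 kb. A second peak over the start of Cdc45 (chr16:18811850-18812108) had 3.38 in the pooled list and 4.67 in replicate 3, and that start is shared with Ufd1, which lies within 1 kb. Ccne1 (chr7:38107621-38108012) had 3.73 in the pooled list and 4.48 in replicate 3, with no peak in replicates 1 and 2.

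E2f3 carried a pair of peaks beside its listed starts. They had fold enrichments of 3.15 (chr13:29984657-29984944) and 3.31 (chr13:29986099-29986913) in the pooled list, and 3.67 and 3.98 in replicate 3. Cdt1 (chr8:122567559-122567900) had 3.22 in the pooled list and 3.63 in replicate 3. Both genes were thus found in replicate 3 and in neither of the others. Pole (chr5:110285920-110286546) had 3.10 and Rpa2 (chr4:132768336-132768683) 3.06, each in the pooled list alone. Pold1 (chr7:44548649-44548931) had 2.96 in the pooled list and 4.71 in replicate 1. Fold enrichments of different lists are not on a common scale and were not compared.

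The 23 pooled PSME3 peaks at these genes did not stand out in their list. Their median percentile in it was 34.1 by fold enrichment and 49.1 by q. Their fold enrichment was 2.52 to 4.02, with a median of 2.81 against 2.92 for all 5812 peaks, and their median width was 348 bp against 431 bp. All 23 lay inside a pooled H3K4me3 peak (100%, exact 95% Clopper-Pearson interval 85.2 to 100%), where 93.6% of all pooled PSME3 peaks overlapped one by at least 1 bp. In the replicates all 5, 3 and 12 PSME3 peaks at the genes overlapped H3K4me3 in the library with the same number, as did 78.2%, 95.5% and 94.8% of all PSME3 peaks of replicates 1, 2 and 3. Of the 18 peaks whose gene had a listed start, 15 had their centre within 500 bp of it, 10 before and 8 after the start among the 18. Exceptions were E2f1, with its centre at -676 bp from the start, E2f2, at 4755 bp, and the inner peak of Cdc45, at 16445 bp. The peaks inside E2f2 and Cdc45 lay in weak H3K4me3 peaks, with fold enrichments of 3.52 and 2.83, and each site had H3K4me3 in 1 of 4 day 2 lists. The other 21 lay where all 4 day 2 lists still had H3K4me3.

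**Figure D3:**
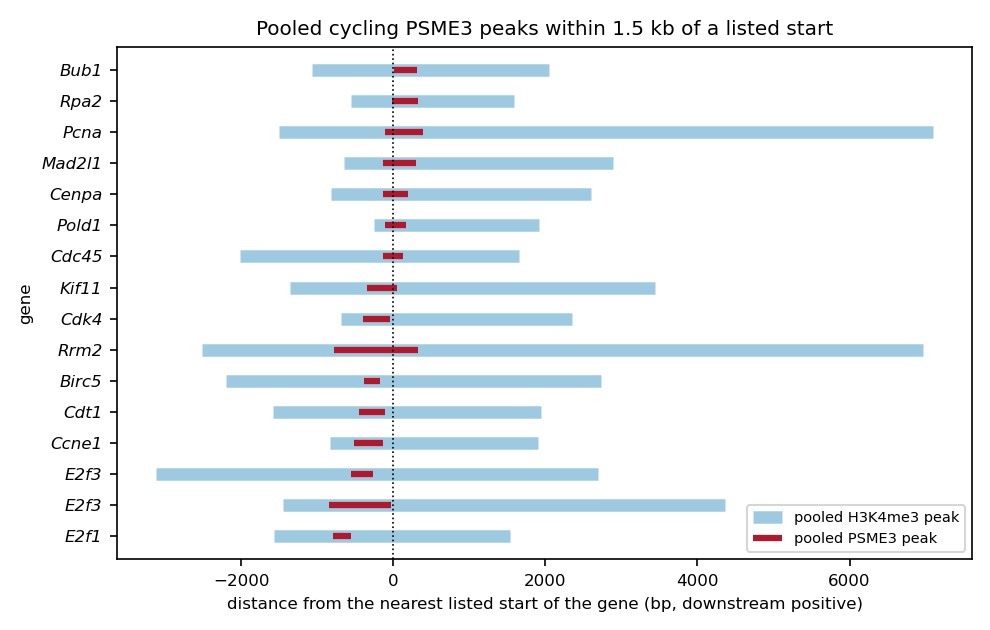
Extent of the pooled PSME3 peaks (dark bars) and of the pooled H3K4me3 peaks they lay in (pale bars), for the 16 PSME3 peaks within 1.5 kb of a listed start, with distance from the nearest listed start of the gene in bp (horizontal axis, downstream positive). The PSME3 bars sit near the start and inside the wider H3K4me3 bars.

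At day 2 no PSME3 peak was listed at any S phase or mitosis gene. The count was 0 of 59 in each of the 4 preparations, and each 0 of 59 allows a share of up to 6.06% (exact 95% Clopper-Pearson bound). Few genes of any kind had a PSME3 peak there: 0.909%, 0.361%, 0.0457% and 0.0366% of protein-coding genes in the same order. Those shares give 0.536, 0.213, 0.027 and 0.0216 of 59 genes, so a loss at these genes beyond that of all genes was not detectable. The mean of 6.33 genes per cycling library against 0 had p = 0.0571 in a two-sided exact permutation test, the smallest p that 3 against 4 libraries allow. List length moved with this difference. With each cycling list cut to its 186 peaks of smallest q, the length of the frozen native day 2 list, the cycling counts were 1, 0 and 0. Of 58 other cell cycle genes, 19 had a PSME3 peak in the pooled cycling list and 1 did at day 2, in frozen crosslinked cells.

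Every one of these genes kept an H3K4me3 peak within 1 kb of its span. All 59 had an H3K4me3 peak within 1 kb of the span in the pooled cycling list, in cycling replicates 1, 2 and 3 and in the 4 day 2 libraries. Of all protein-coding genes 61.0% had one in the pooled list, 58.8%, 63.6% and 59.1% in the replicates, and 56.9%, 57.7%, 54.5% and 57.5% in the 4 day 2 libraries. The 58 other cell cycle genes also had a peak in every list. With only the peaks within 1 kb of a gene boundary, 58 of the 59 had one in each cycling replicate. At day 2 the counts were then 58, 58, 57 and 57. The strongest pooled peak at each of the 59 had a median width of 3452 bp, from 1614 to 9488 bp, against 2878 bp for all protein-coding genes with a peak. The widest, 9488 bp, was at Rrm2, and Ccnd1 and Pcna followed with 9018 and 8607 bp. By contrast, 7 or 8 of 22 sarcomere genes had an H3K4me3 peak in a cycling replicate and 17 or 18 at day 2.

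No gene of the 59 passed the planned test of how much of it the mark covered. Each gene was ranked in each library by the base pairs its H3K4me3 peaks covered, as a percentile of all protein-coding genes, and day 2 was compared with cycling by limma with terms for fresh and crosslinked cells. The test called 0 of the 59 at an adjusted p of at most 0.05, while 2.66% of 12950 genes tested were called, and 12 of the 59 had an unadjusted p under 0.05, as did 13.8% of all genes tested. The median difference, day 2 minus cycling, was -3.69 percentile points for the 59 against 0.43 for all genes tested, and 50 of 59 differences were negative against 46.8% of all. The direction depended on the window: with only the peaks within 1 kb of a gene boundary, 24 of 58 differences were negative against 42.5% of all genes, and the median was 1.9 against 0.94. A fit without preparation terms called 3 of the 59, all lower: Ccne2, Mcm2 and Cdk1, where it called 3.48% of all genes lower. The 10 genes with the largest differences, none of them called, were Cdc6, Mcm2, Rpa1, Aurkb, Ccnd2, Bub1b, Cdk4, Rpa2, Cdc20 and Cdk1, from -20.17 (Cdc6) to -9.47 (Cdk1). Cdc6, the loader of the MCM ring, had 2521, 4895 and 2647 bp covered in cycling replicates 1, 2 and 3. At day 2 it had 1692, 2187, 1060 and 1992 bp, below all cycling values (difference -20.17 percentile points, SE 6.40, limma, adjusted p = 0.282). With only the peaks within 1 kb of its boundaries the Cdc6 difference was -2.77 points (limma, adjusted p = 0.848).

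Ranked by peak height, 29 of the 59 genes stood lower in every day 2 library, a count chosen after seeing the data. Each gene was also ranked by the highest fold enrichment of its H3K4me3 peaks, again as a percentile of all protein-coding genes in the library, where genes without a peak filled the lowest 36.4 to 45.5%. For these 29 (49.2%) all 4 day 2 percentiles lay below all 3 cycling percentiles, a pattern shown by 12.1% of the 12950 genes tested. The opposite, all day 2 values above all cycling values, was seen at 0 of the 59 against 10.6% of all genes. For covered base pairs the counts were 14 below and 3 above, against 10.2% and 14.3% of all genes. The median percentile of the 59 was 71.2, 80.3 and 75.1 in cycling replicates 1, 2 and 3 and 62.2, 64.0, 62.2 and 61.3 in the day 2 libraries, with no overlap.

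The limma fit on this percentile, with preparation terms, called 3 of the 59 at an adjusted p of at most 0.05, all lower at day 2: Bub1b, Plk1 and Cdc25c. It called 2.35% of all genes lower. The median difference was -8.9 percentile points for the 59 and -0.31 for all genes tested. None of these calls was kept with 1 library left out: the fit then called 0 of the 12950 genes, with 10 to 28 of the 59 and 10.9 to 17.0% of all genes at an unadjusted p under 0.05. Without any 1 day 2 library the fit matched the remaining ones exactly, so its error came from the cycling replicates alone. The fits without the frozen crosslinked, fresh native or fresh crosslinked library gave the same result and are not separate checks. In the full fit, too, the error came mostly from the cycling replicates. A fit without preparation terms, chosen after seeing the data, called 18 of the 59, all lower, where 4.15% of all genes were called lower. In that fit the stage and the 3 other preparations cannot be told apart. It called 13 to 20 of the 59 and 3.23 to 3.87% of all genes lower when 1 library was left out, and called Cdk1 higher without cycling replicate 2 and Gins1 higher without the frozen native day 2 library. The same 11 were called in the full fit and in each of those 7: Bub1b, Ccna2, Ccnb1, Ccnb2, Cdc25c, Cdc6, Mad2l1, Mcm10, Mcm6, Plk1 and Rpa2. How many of all genes were called in every one of these fits was not counted, so the 11 have no background share beside them.

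**Figure D4:**
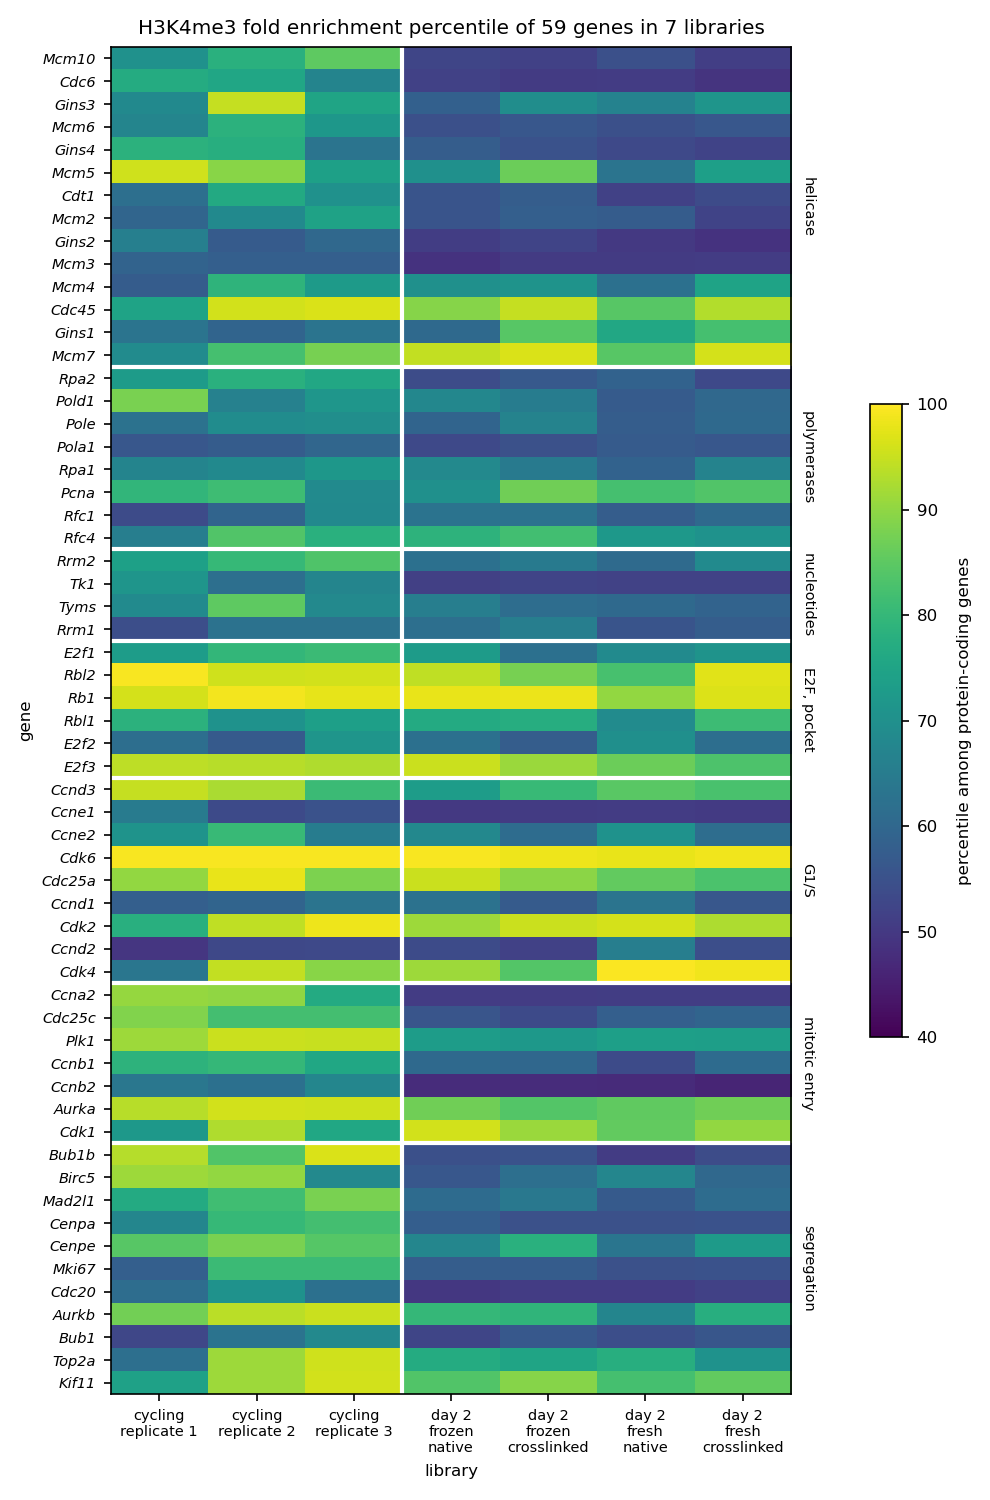
Percentile of the highest H3K4me3 fold enrichment among protein-coding genes (color) for 59 genes (vertical axis, grouped by role and ordered by the day 2 difference within a role) in 3 cycling and 4 day 2 libraries (horizontal axis). Most mitotic entry genes are lighter in the 3 cycling columns than in the 4 day 2 columns, whereas Cdk6 and Rb1 are light throughout.

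The 3 genes called with preparation terms act in mitosis. The largest differences of the 59 were at Bub1b, Ccna2 and Cdc25c, followed by the replication factor Mcm10 (-24.71 points). Bub1b encodes BubR1, a kinase-like protein of the spindle checkpoint. It stood at percentiles 93.4, 83.7 and 96.6 in cycling replicates 1, 2 and 3 and at 54.7, 55.1, 50.6 and 53.9 in the day 2 libraries. It fell by 37.23 percentile points (SE 5.15, limma, adjusted p = 0.0334). In the fresh native library no peak lay over a listed Bub1b promoter, so its value there came from elsewhere in the window. Plk1, the kinase that drives mitotic entry and spindle assembly, stood at 91.2, 95.1 and 95.0 in cycling cells and 73.1, 72.1, 73.9 and 73.7 at day 2. It fell by 20.81 points (SE 3.03, limma, adjusted p = 0.0359). In Plk1 the spread within each stage was under 4 points, so the stages were far apart. Cdc25c stood at 88.6, 82.0 and 82.0 and then at 55.9, 53.4, 58.1 and 59.4, and it fell by 29.29 points (SE 3.72, limma, adjusted p = 0.033).

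The mitotic cyclins also ranked lower in all day 2 libraries, without passing the test that had preparation terms. Ccna2, the cyclin of S phase and early mitosis, had percentiles of 90.4, 90.0 and 76.7 in cycling cells and 50.6, 50.7, 50.9 and 50.8 at day 2, a difference of -35.05 (SE 5.74, limma, adjusted p = 0.0516). Ccnb1, the main activating cyclin of Cdk1, had 78.9, 79.9 and 75.8 and then 60.4, 60.0, 53.7 and 60.9. Ccnb2 had fold enrichments of 15.1, 8.6 and 20.5 in cycling cells and 5.12, 4.0, 2.89 and 3.14 at day 2, at percentiles of 63.9, 62.1 and 67.6 and then 47.6, 47.7, 47.4 and 46.3. Fold enrichments are not on a common scale between libraries: the median over genes with a peak was 16.7, 9.53 and 21.6 and then 16.0, 10.7, 6.89 and 8.65. All 3 cyclins were called lower in the fit without preparation terms, at adjusted p-values (limma) of 0.00102, 0.00379 and 0.00225. Aurka, a centrosomal kinase, stayed high and still shifted, from 93.6, 95.8 and 95.7 to 87.1, 83.9, 85.3 and 87.1.

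Over the 7 mitotic entry genes the median difference was -19.68 points, and 6 of the 7 were lower in all day 2 libraries, where 12.1% of all genes tested were and the median over all genes was -0.31. Over the 11 segregation genes it was -15.7, with 8 of 11 lower in all day 2 libraries against the same 12.1%: Bub1b, Mad2l1, Birc5, Cenpa, Cenpe, Mki67, Cdc20 and Aurkb. Cdc20, which activates the anaphase-promoting complex, went from 61.5, 70.6 and 62.1 to 49.8, 50.7, 50.7 and 51.7. Mad2l1, a checkpoint protein, went from 76.6, 81.6 and 88.0 to 60.9, 64.0, 56.9 and 61.3. Top2a and Kif11 overlapped between stages, with cycling replicate 1 at 62.0 and 74.4, below the other cycling replicates.

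**Figure D5:**
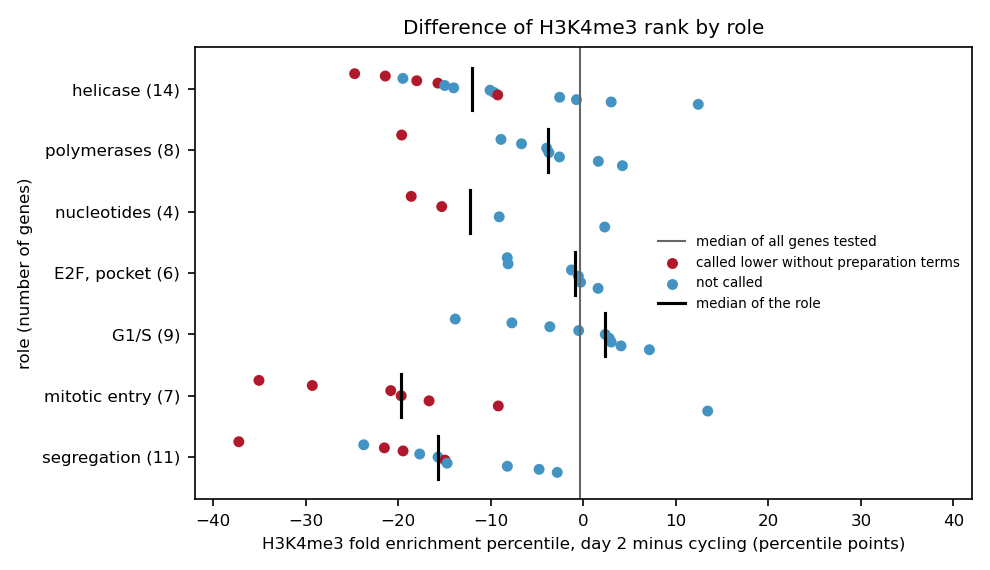
Difference of the H3K4me3 fold enrichment percentile, day 2 minus cycling in percentile points from the fit with preparation terms (horizontal axis), for each gene by role (vertical axis), with the role's median as a black bar and the median of all 12950 genes tested as a grey line at -0.31. Red points are the 18 genes called lower in the fit without preparation terms, and the role medians run from -19.68 for mitotic entry to 2.37 for G1 and S genes.

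Genes of DNA replication were split. Of the 14 helicase genes 8 were lower in all day 2 libraries, with a median difference of -12.04 points, against 12.1% and -0.31 for all genes tested. Mcm10, an initiation factor, stood at 70.4, 78.2 and 85.1 in cycling cells and 52.6, 51.5, 54.6 and 51.2 at day 2. Cdc6 went from 77.0, 75.5 and 67.0 to 51.7, 50.5, 50.7 and 49.1. Both were called lower without preparation terms, at adjusted p-values (limma) of 0.00507 and 0.00289. Within the MCM ring the subunits differed. Mcm2, Mcm3 and Mcm6 were lower in all day 2 libraries, Mcm4 and Mcm5 overlapped between stages, and Mcm7 pointed the other way, from 69.0, 82.4 and 87.6 to 94.5, 96.6, 84.3 and 96.2 (difference 12.42, SE 7.14, limma, adjusted p = 0.575).

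Of the 8 polymerase, clamp and single-strand binding genes, 1 was lower in all day 2 libraries, a share near the 12.1% of all genes tested. It was Rpa2, at 73.0, 78.2 and 76.0 in cycling cells and 54.0, 56.8, 58.9 and 53.3 at day 2. Pcna overlapped between stages, at 79.4, 81.3 and 68.8 and then 70.1, 86.9, 82.2 and 83.8. In nucleotide synthesis Rrm2, Tyms and Tk1 were lower in all day 2 libraries and Rrm1 overlapped. Tk1, the thymidine kinase of S phase, had percentiles of 71.2, 62.0 and 67.3 and then 51.3, 52.3, 51.8 and 51.9. At Rrm2 the covered length was 6350, 6447 and 6140 bp in cycling cells and 3606, 3497, 3309 and 3136 bp at day 2.

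Most genes of the G1 switch overlapped between stages. The median difference was -0.91 points for the 6 E2F and pocket protein genes and 2.37 for the 9 G1 and S genes, against -0.31 for all genes tested. Lower in all day 2 libraries were 1 of the 6 and 2 of the 9, where 12.1% of all genes tested were. They were E2f1, from 73.1, 79.8 and 81.0 to 73.0, 62.1, 68.6 and 70.8, Ccne1, from 64.9, 53.5 and 55.1 to 49.9, 50.4, 50.6 and 50.3, and Cdk6. Cdk6, a partner of D-type cyclins, stood at 99.3, 99.4 and 99.5 in cycling cells and 99.3, 98.4, 97.9 and 98.6 at day 2, the highest of the 59 in every cycling library except replicate 1, where Rbl2 had 99.4. Cdk6 is counted among the 29 genes lower in all day 2 libraries although the fitted difference was -0.5 points and the stages met at 99.3 after rounding. Rb1, the retinoblastoma protein, stood at 96.2, 98.9 and 97.8 and then 98.0, 98.2, 90.3 and 96.9. The strongest pooled H3K4me3 peak in the window of Rb1 (chr14:73237433-73240809) lay inside the gene, 44575 bp from the nearer gene boundary, and no Rb1 promoter was listed, so it is uncertain that this rank belongs to the start of Rb1. The strongest peak was over 1 kb from both boundaries at 3 of the 59, the others being Ccnd3 (2806 bp) and Rfc1 (2118 bp). Cdk4 varied more between libraries of a stage than between stages, at 63.6, 94.6 and 89.4 and then 91.3, 84.0, 99.6 and 98.7. Cdk1, the mitotic kinase, also overlapped, at 72.1, 92.8 and 75.7 and then 96.0, 91.0, 85.7 and 90.2, while its covered length was 4901, 5214 and 5456 bp and then 2892, 3289, 2446 and 2941 bp.

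By covered length 3 of the 59 ranked above all cycling libraries in all day 2 libraries, Rb1, Rbl2 and Ccnd3, where 14.3% of all genes tested did. Rbl2, the pocket protein p130 of quiescent cells, had 2153, 2716 and 2240 bp in cycling cells and 2267, 2433, 2442 and 2971 bp at day 2, lengths that overlapped between stages, while its percentile went from a mean of 64.1 to between 71.7 and 84.7 (difference 8.03, unadjusted p = 0.0152 by limma, adjusted p = 0.219). Ccnd3 had 5168, 12385 and 6601 bp in cycling cells and 8297, 11107, 6948 and 10221 bp at day 2. Its percentile was at least 99.2 at day 2 and had a mean of 97.3 in cycling cells. Ccnd1 had 5939, 6042 and 5490 bp and then 3173, 3260, 3199 and 3157 bp, but its percentiles overlapped between stages, at 97.2, 92.7 and 95.6 and then 86.4, 84.6, 92.8 and 85.6. Covered lengths were shorter at day 2 for genes in general, with a median over genes with a peak of 2441.5 to 2863 bp in cycling libraries and 1856 to 2389 bp at day 2. None of these differences passed the adjusted test.

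Of 58 other cell cycle genes, 24 (41.4%) had a fold enrichment percentile below all cycling libraries in all day 2 libraries and 0 above, where 12.1% and 10.6% of all genes tested did. Without preparation terms 10 of the 58 were called lower, where 4.15% of all genes were, and with them 3, where 2.35% were. Whether these counts differ from those of the 59 was not tested. Of 5 cyclin-dependent kinase inhibitor genes tested 0 were lower in all day 2 libraries, and of 18 sarcomere genes tested 2 were lower and 12 higher in all of them.

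Peaks near other genes fall in the same window, so the percentile was recomputed over the RefSeq promoters alone, a choice made after seeing the data. It could be given for 47 of the 59. Of these, 24 were lower in all day 2 libraries, where 11.4% of 9415 genes were, and 0 were higher, where 10.6% were. Bub1b stood at 25.4 in the fresh native library and Ccne1 at 24.4 in the fresh crosslinked library, the ranks of genes without a promoter peak. The limma fit called Plk1 alone lower with preparation terms (1.88% of all genes) and 14 of the 47 without them (3.43% of all genes). With them Bub1b was not called (difference -42.94 points, limma, adjusted p = 0.117), and Cdc25c and Ccna2 had no listed promoter. The median difference with them was -8.72 points for the 47 against -0.18 for all genes tested.

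The genes that ranked lower in all day 2 libraries were also counted by promoter motif and by PSME3 peak. These counts are descriptions over genes, which are not replicates, and no difference between them was tested. Of all genes tested 12.1% were lower in all day 2 libraries, with a median difference of -0.31 points. Of the 15 genes with a CHR motif 8 were lower in all day 2 libraries, with a median difference of -10.08 points, and of the 32 without it 16 were, with a median of -8.56. Of the 15 with an E2F motif 4 were lower in all day 2 libraries (median -3.96), and of the 32 without it 20 were (median -9.64). Of the 33 with CCAAT 15 were (median -9.25), and of the 14 without it 9 were (median -8.56). Of the 21 genes with a pooled PSME3 peak 10 were lower in all day 2 libraries (median -8.21), and of the 38 without it 19 were (median -9.22).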

How the data were processed

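CUT&RUN peak lists of 14 of the 21 C2C12 libraries were used, and 7 IgG libraries were not analysed here. Per the labels and the submitters' processing notes, the authors trimmed reads with Trim Galore, aligned them to mm10 with Bowtie2 and called peaks with MACS2, by replicate and on pooled cycling replicates; versions are not given in the sources used here. The deposited columns are a fold enrichment, a ratio to local background, and the −log10 of p-value and q-value (every listed q is below 0.1). The 59 genes, role lists and comparison lists were chosen with earlier results of these data known.

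Peaks within 1 kb of a RefSeq GRCm38.p6 gene span were assigned to it, overlaps needed 1 bp, and intervals are Clopper-Pearson at 95%. Percentiles of genes with a peak in at least 3 of 7 H3K4me3 libraries were tested with limma 3.58.1 in R 4.3.3 (Benjamini-Hochberg, adjusted p of at most 0.05). Other steps used Python 3.11.15, numpy 2.4.6, pandas 2.3.3 and scipy 1.17.1. Scripts were tested on simulated data. Genes given in full were those with a PSME3 peak in at least 2 replicates, then by pooled fold enrichment up to 8, and every gene called by limma or the 10 of largest difference. Other genes were named by role or value after the data were seen. Alternatives covered q, window, list length, preparation, promoter windows and each library left out. Same-numbered PSME3 and H3K4me3 libraries deviated together over 19 autosomes in log2 share of peaks (Pearson r 0.54, 0.555 and 0.275 for replicates 1, 2 and 3), although replicates 1 and 3 were not told apart (r 0.522 and 0.266).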

Additional observations from a re-analysis of the deposited data

How the results depend on the processing

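PSME3 counts depended on q, list length and replication. The difference of 6.33 genes between cycling and day 2 was 0.333 to 7 genes under the other settings and 4 to 8 with a library left out. Each day 2 count was 0, which fixed the direction, and no exact permutation p below 0.0571 was possible with at most 3 against 4 libraries. The pooled count of 21 genes was 11 at a q-value of at most 0.01 (18.6% against 12.8% of protein-coding genes) and 1 with pooled peaks found in at least 2 replicate lists (1.69% against 3.97%). With the replicate number as a block, the difference of 52.7 genes between H3K4me3 and PSME3 had p = 0.25 in an exact sign-flip test, the smallest p that 3 pairs allow. No other test was made with the pairing. The number of genes with H3K4me3 differed between stages by 0.25 with q limited to 0.01 and by 0.5 within 1 kb of a gene boundary.

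For the rank of covered base pairs, where 0 genes were called, 3 were called without preparation terms (3.48% of all genes called lower) and 3 by fold enrichment percentile (2.35%). When q was limited to 0.01, 1 was called (Cdc6), where 335 of 12603 genes tested were. With a library left out 0 to 1 were called (Cdc6 without cycling replicate 2, where 459 of 12950 genes were). Leaving out cycling replicate 1, cycling replicate 3 or the frozen native library took all calls over 12950 genes from 345 to 0. Leaving out the frozen crosslinked, fresh native or fresh crosslinked library took them to 12 each time. Settings added after seeing the data called 18 genes by fold enrichment percentile without preparation terms, 1 by promoter fold enrichment percentile and 14 by the latter without preparation terms. Of all genes tested 4.15%, 1.88% and 3.43% were called lower in these settings. The 3 genes called by fold enrichment percentile became 0 with any library left out. Over promoters Plk1 stayed called, Bub1b did not, and Cdc25c had no listed promoter and was not tested. The 18 called lower became 13 to 20 (3.23 to 3.87% of all genes) with a library left out. Cdk1 was then called higher without cycling replicate 2 and Gins1 higher without the frozen native day 2 library. The 29 genes lower in all day 2 libraries became 14 by covered percentile. Leaving out a library can only keep or raise this count, and gave 29 to 37 of the 59 and 13.8 to 17.7% of all genes tested.

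Within 1 kb of gene boundaries the median difference of the genes turned from -3.69 to 1.9 (24 of 58 negative), that of Cdc6 shrank from -20.17 to -2.77, and the direction turned for Mcm2 (2.78), Bub1b (1.32) and Cdk1 (6.98). By fold enrichment percentile it turned for Ccnd2 (4.07), Cdk4 (7.14) and Cdk1 (13.4). The causes were not tested. The lists hold no read numbers, so depth limits what absence of a PSME3 peak can show.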

Other observations

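Cyclin-dependent kinase inhibitors hold the cell cycle in check, and 5 of 7 such genes had an H3K4me3 peak in every cycling list, as at day 2 except in the fresh native library, where 4 of 7 did (Cdkn1c had none there). Cdkn1a, the inhibitor p21, had 4536, 5059 and 4489 bp covered by H3K4me3 peaks in cycling replicates 1, 2 and 3, and 5946, 6294, 3796 and 5640 bp in the 4 day 2 libraries. Cdkn2c, the inhibitor p18, had 5578, 6035 and 5584 bp and then 6346, 6442, 4535 and 5747 bp, so the lengths of both overlapped between stages. Their percentiles of covered length did not: that of Cdkn1a was 93.7, 89.1 and 91.9 and then 97.8, 97.5, 95.6 and 97.1, and that of Cdkn2c 96.6, 92.7 and 95.8 and then 98.2, 97.7, 97.6 and 97.3. These were 2 of the 5 inhibitor genes tested, where 14.3% of all genes tested ranked above all cycling libraries in all day 2 libraries. The limma fit with preparation terms on this percentile called 0 of the 5, and 0 had an unadjusted p under 0.05. By fold enrichment percentile the direction differed, with 4 of the 5 differences negative and a median of -2.81 points. Cdkn1b, the inhibitor p27, had its whole window of 7125 bp covered in all 7 libraries. Cdkn2a and Cdkn2b had 0 bp covered in all 7.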
